A study of Mus musculus with 6 samples.

Results

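The genes described here are 10 genes of the transforming growth factor β (TGF-β) pathway in microglia, immune cells that live in the brain. They are the ligands Tgfb1 and Tgfb2, the activator Nrros, the receptors Tgfbr1 and Tgfbr2, the signal carriers Smad2, Smad3 and Smad4, and the inhibitors Smad7 and Ski. They were chosen by name, for their place in the pathway, and all 10 were found by Ensembl identifier among the 26789 genes of the deposited table. All 10 also passed the filter on low values, set at an average of 10 normalized counts per library, which 18007 genes passed.

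TGF-β ligands are secreted in a latent form, and NRROS on the surface of microglia and other macrophages holds latent TGF-β1 until integrins release it. Active ligand joins the receptor kinases encoded by Tgfbr2 and Tgfbr1, which phosphorylate Smad2 and Smad3; these enter the nucleus with Smad4, while Smad7 and Ski limit the response. In the mouse brain this pathway is known to be needed for microglia to acquire and keep their mature state, in which genes such as P2ry12, Tmem119 and Sall1 are highly expressed.

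The study asked whether gene expression in microglia of the nucleus of the solitary tract (NST), the first brainstem relay for taste, differed after a maternal diet low in sodium. Controls were C57Bl/6 mice on standard chow. E3–E12 diet mice had mothers that received low-sodium chow and distilled water during embryonic days E3 to E12, before a return to standard chow. Each group had 3 libraries. The labels name the groups by maternal diet alone and give the cells as microglia, and the strain, ages and days of diet come from the methods of the study. All mice were taken at P15, and a library was made from rostral NST tissue of 6 littermates together, which hides differences between single mice. Cells were dissociated and sorted with magnetic beads against CD11b according to the study's methods, whereas the deposited design text names laser microdissection, and the read length also differs between these sources. The RNA was amplified before sequencing by those methods.

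Totals of normalized counts per library were 9671119, 17204618 and 11910787 across the controls and 9407141, 11192984 and 14656956 across the E3–E12 diet libraries, in the order of replicates 1, 2 and 3 that is kept for every set of values below. Low values in a library lay mostly near whole multiples of 1 step, and from these steps a library held about 8370000 to 21870000 assigned reads. The study's methods give more reads per sample, as reads sequenced rather than reads assigned to genes. Control replicate 2 stood apart over all genes. It had 10640 genes listed at 0, where the other 5 libraries had 3459 to 7135, and it held the highest value of 26.3% of the genes tested and the lowest of 33.8%. Among the 4250 genes averaging 500 normalized counts or more, 46.5% were highest in that library. Of the 10 TGF-β genes, 7 were highest and 1 was lowest in control replicate 2. For this reason its value is stated for each of the 10 genes below.

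The label of the cells was checked with 6 microglial markers, P2ry12, Tmem119, Cx3cr1, Csf1r, Aif1 and Itgam. None was listed at 0 in any of the 6 libraries, and Csf1r was the most abundant of them per kb of exon. Their normalized counts summed to 81532, 417118 and 182817 among controls and to 83365, 186156 and 251692 among E3–E12 diet libraries. The sum was thus lowest in replicate 1 of each group and highest in control replicate 2, and the groups overlapped. All 6 markers had a log2 fold change below 0 (median -0.18), while all 6 were above 0 without control replicate 2 (median 0.33) and all 6 without E3–E12 diet replicate 1 (median 0.26). All 6 were below 0 without control replicate 1 (median -0.70) or with E3–E12 diet replicate 3 left out (median -0.55), and 3 of 6 were above 0 with equal totals, after quantile normalization or without control replicate 3 (median -0.0016). In bulk libraries fewer cells of a type and less RNA per cell cannot be told apart.

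Across all genes, 0 of 18007 (0%) had an adjusted p under 0.1 in limma with Benjamini-Hochberg adjustment, the threshold of the study, and 327 (1.82%) had an unadjusted p under 0.05. None of the 10 TGF-β genes was in either count. The study, which used the count model DESeq2, lists genes raised and genes lowered in E3–E12 diet mice at that threshold. The count of 0 therefore belongs to the limma fit on log2 values. The 3 values of a group lay entirely above those of the other in 1062 genes (5.9%), and in 0 of the 10 TGF-β genes. The log2 fold change, always E3–E12 diet minus control on the log2(normalized count + 1) scale, was above 0 for 5 of the 10 and below 0 for 5. Its median over the 10 was -0.040, beside 0.087 over all genes tested. The median was 0.26 without control replicate 2, with 9 of 10 genes above 0, and 0.24 without E3–E12 diet replicate 1. It was -0.52 without control replicate 1, and leaving out E3–E12 diet replicate 3 gave -0.35. Scaling the libraries to equal totals outside the mitochondrial genome moved the median of all genes to 0.24 and that of the 10 to 0.12. Each of the 10 had an adjusted p of 0.999 in limma with Benjamini-Hochberg adjustment. With 3 libraries against 3, the smallest p an exact permutation test can give is 0.1. Fold changes put into simulated data with the spread of these libraries were not called by limma. A gene without a call is therefore not shown to be unchanged.

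**Figure D1:**
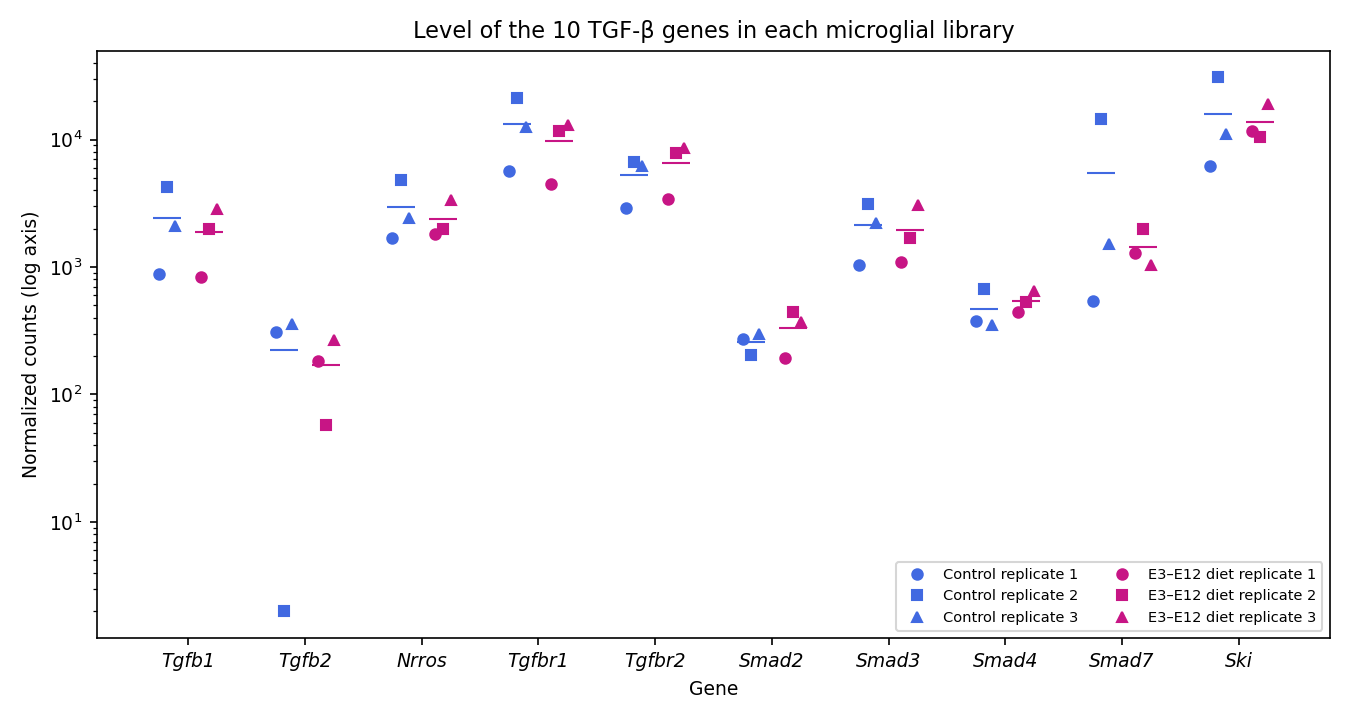
Normalized counts of the 10 TGF-β genes on a log axis, with 1 symbol per library (blue, control; magenta, E3–E12 diet; circles, squares and triangles, replicates 1, 2 and 3) and a short line at the mean of each group of 3. The groups overlap for every gene shown, and the control square (replicate 2) lies at 14451 for Smad7 and at 1.99 for Tgfb2, away from the other 5 libraries.

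Tgfb1 encodes the main TGF-β ligand of the brain and is made by microglia themselves. It had 883, 4265 and 2109 normalized counts among controls and 829.7, 1984 and 2833 among E3–E12 diet libraries. Replicate 1 was low in both groups and control replicate 2 was the highest, 5.14 times the lowest library, so the E3–E12 diet values lay within the span of the controls apart from replicate 1, which was just below it. The group means were 2419 ± 1712 in controls and 1882 ± 1005 in E3–E12 diet mice (SD, n = 3 libraries each). E3–E12 diet minus control gave a log2 fold change of -0.26 (standard error 0.83, 95% confidence interval -2.24 to 1.73, exact permutation p = 0.7, two-sided). Leaving out control replicate 2 gave 0.29 and leaving out E3–E12 diet replicate 1 gave 0.25, so the direction rested on those libraries.

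The profile of Tgfb1 was close to that of the microglial markers. Tgfb1 came to 1.08%, 1.02% and 1.15% of the summed normalized counts of the 6 markers among controls and to 0.995%, 1.07% and 1.13% among E3–E12 diet libraries. The share was therefore nearly level over libraries whose Tgfb1 values themselves spanned several-fold, and it was 1.09% ± 0.0655 in controls and 1.06% ± 0.0652 in E3–E12 diet mice (SD, n = 3 libraries each). The highest share was 1.16 times the lowest, and 0 of the 18007 genes tested had a smaller range relative to these markers, where the median gene averaging 500 normalized counts or more had a range of 4.58 times. This ratio was chosen after its values were seen. Csf1r made up 56% to 67.1% of the marker sum. When Csf1r was left out of the sum, the highest share of Tgfb1 was 1.22 times the lowest and 2 genes had a smaller range, and against the geometric mean of the 6 markers it was 1.28 times the lowest and 1 gene had a smaller range. Relative to the total outside the mitochondrial genome, Tgfb1 spanned 2.6 times and 2629 genes had a smaller range.

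Among the 10479 genes compared, all averaging 100 normalized counts or more, the profiles most like that of Tgfb1 over the 6 libraries were those of Adap2, Zfp385a and Tlr13. Likeness was measured as the root-mean-square difference of log2 profiles, each centred on its own mean, and these 3 genes had differences of 0.0598, 0.101 and 0.137, where the median gene had 0.993. Adap2 had 2084, 10094 and 5314 normalized counts among controls and 1889.6, 5097 and 6729.6 among E3–E12 diet libraries. It was thus low in replicate 1 of each group and high in control replicate 2, the order seen for Tgfb1. Tlr13 encodes an endosomal receptor for bacterial ribosomal RNA.

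Tgfb2, a second ligand gene of the family, had 309, 1.99 and 355 normalized counts among controls and 184, 57.3 and 267 among E3–E12 diet libraries. The value in control replicate 2 corresponds to about 1 read, so that Tgfb2 was at the limit of detection in that library and well above it in the other 5. The groups overlapped, and the highest library was 178 times the lowest. In limma the log2 fold change came to 1.04 (standard error 1.90, 95% confidence interval -3.50 to 5.59, exact permutation p = 1). Without control replicate 2 it was -1.22, and both remaining controls then lay above all 3 E3–E12 diet libraries, in a setting where 14.4% of all genes did not overlap. With a pseudocount of 10 in place of 1 it was 0.46, and after quantile normalization it was 0.10.

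Tgfb1 and Tgfb2 thus moved in different ways over the libraries. Per kb of exon, the level of Tgfb1 was 3.29, 2458 and 6.82 times that of Tgfb2 among controls and 5.18, 39.8 and 12.2 times among E3–E12 diet libraries. Tgfb1 was the more abundant ligand transcript in each of the 6 libraries, and the ratio was highest in replicate 2 of each group.

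Control replicate 2 and, less so, E3–E12 diet replicate 2 were also low in the summed markers of several other cell types. Of 5 mural and fibroblast markers, none was listed at 0 in any library, Rgs5 was the most abundant per kb, and the sums were 14098, 928 and 11243 normalized counts among controls and 15074, 5339 and 7401 among E3–E12 diet libraries. Not all of this list was lowest in control replicate 2, where Col1a1 (284) and Lum (99.2) were above E3–E12 diet replicate 2 (227 and 10.1). Of 6 endothelial markers, Ly6c1 and Slco1c1 were listed at 0 in control replicate 2, Ly6c1 was the most abundant per kb, and the sums were 10409.5, 4512 and 10586 in controls and 9733, 6064 and 11256 in E3–E12 diet mice. The endothelial list went both ways in control replicate 2, since Cldn5 (1207) and Pecam1 (3154) had their highest value of the 6 libraries there. Both sums were lowest in the 2 libraries in which Tgfb2 was lowest. The 5 astrocyte markers, led by Slc1a2, summed to 8764, 1655 and 5287 in controls and 8934, 4149 and 4245 in E3–E12 diet mice, with Gfap and Aldh1l1 listed at 0 in control replicate 2 but Slc1a3 at 1420 there, above 4 of the other libraries. The 5 neuronal markers, led by Snap25, summed to 1264, 95.9 and 944 in controls and 1421, 748 and 781 in E3–E12 diet mice, with Syt1, Rbfox3 and Stmn2 listed at 0 in control replicate 2. The part of these cells in the level of Tgfb2 was not tested.

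**Figure D2:**
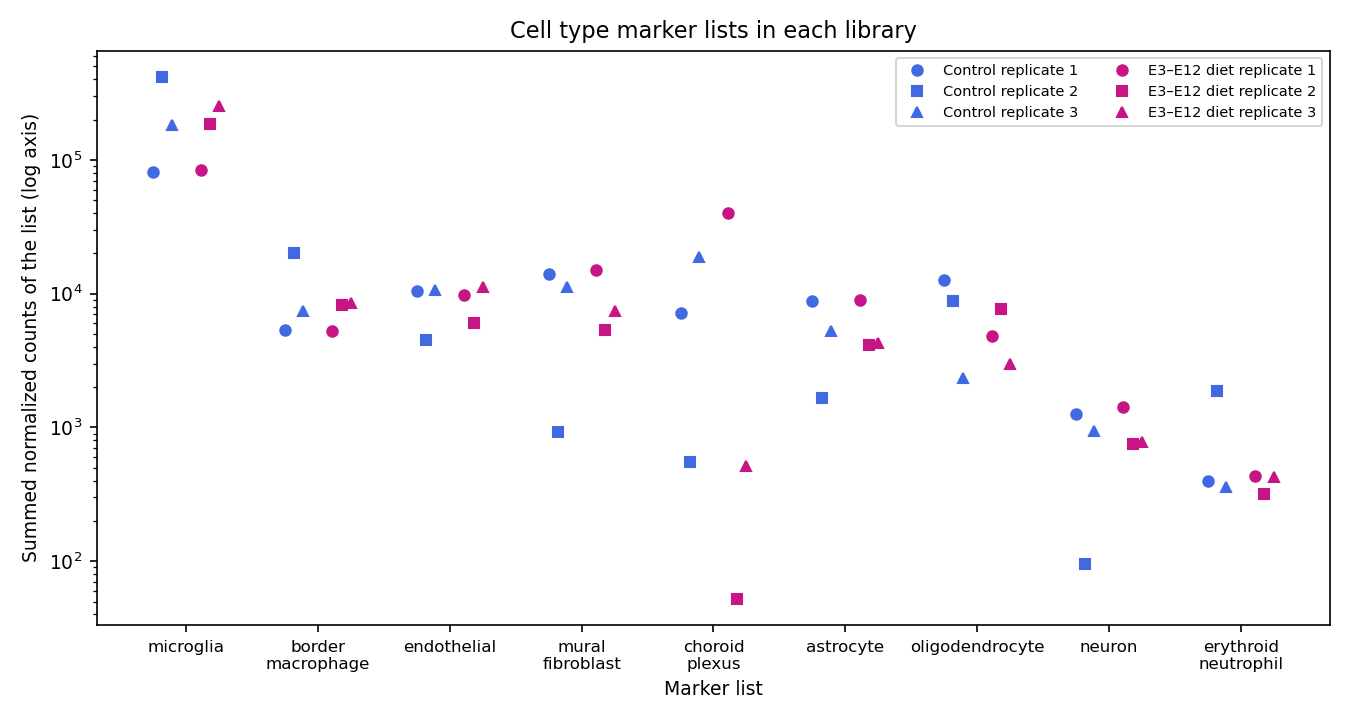
Summed normalized counts of 9 lists of cell type markers on a log axis, with 1 symbol per library (blue, control; magenta, E3–E12 diet; circles, squares and triangles, replicates 1, 2 and 3). The control square (replicate 2) is the highest point for microglia, at 417118, and the lowest for mural and fibroblast cells, at 928.

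Nrros encodes the surface protein that tethers latent TGF-β1 on microglia. It had 1674, 4824 and 2407 normalized counts among controls and 1831, 2005 and 3344 among E3–E12 diet libraries. All 3 E3–E12 diet values lay within the span of the controls, which control replicate 2 set at its upper end. The log2 fold change was -0.22 (standard error 0.65, 95% confidence interval -1.79 to 1.34, exact permutation p = 0.7), and 0.20 without control replicate 2. Per kb of exon, Nrros was above Tgfb1 in each of the 6 libraries, with ratios of 2.29, 1.37 and 1.38 among controls and 2.66, 1.22 and 1.42 among E3–E12 diet libraries. The ratio was thus highest in replicate 1 of each group, where both genes were low.

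Tgfbr1 encodes the type I receptor kinase that phosphorylates Smad2 and Smad3. It had 5659, 21175 and 12656 normalized counts among controls and 4497, 11772 and 12981 among E3–E12 diet libraries. The gene was low in replicate 1 of each group and highest in control replicate 2, and the groups overlapped. E3–E12 diet minus control gave a log2 fold change of -0.38 (standard error 0.77, 95% confidence interval -2.22 to 1.46, exact permutation p = 0.6). Leaving out control replicate 2 gave 0.060, and leaving out E3–E12 diet replicate 1 gave 0.11. Among the other 9 TGF-β genes, Tgfbr1 was nearest in profile to Tgfb1, with a root-mean-square difference of 0.167. Relative to the 6 microglial markers, Tgfbr1 ran from 5.08% to 6.94%, the highest being 1.37 times the lowest, and 9 of the genes tested had a smaller range. Without Csf1r in the sum it was 1.48 times (21 genes smaller), and against the geometric mean 1.61 times (47 genes smaller). Relative to the total outside the mitochondrial genome it was 2.38 times, and 2073 genes had a smaller range. The genes most like Tgfbr1 over the 6 libraries were Zscan29, Mpeg1 and Mapk14, with differences of 0.052, 0.0816 and 0.0986 against a median of 0.929. Mpeg1, a pore-forming protein of macrophages, had 3889, 17031 and 9284 normalized counts in controls and 3148, 7979.5 and 9299 in E3–E12 diet mice.

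Tgfbr2 encodes the type II receptor kinase, which binds the ligand first. It had 2902, 6707 and 6206 normalized counts among controls and 3443, 7799 and 8528 among E3–E12 diet libraries. Replicate 1 was again the low library of each group, but here the highest value was in E3–E12 diet replicate 3, and the groups overlapped only because E3–E12 diet replicate 1 was below 2 of the controls. In limma the log2 fold change came to 0.31 (standard error 0.68, 95% confidence interval -1.31 to 1.92, exact permutation p = 0.5), and -0.076 without control replicate 1. Without E3–E12 diet replicate 1 it was 0.72, and the groups did not overlap, as was so for 15.1% of all genes with that library left out.

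The ratio of the receptor transcripts did not overlap between the groups. Per kb of exon, Tgfbr1 was 2.44, 3.96 and 2.56 times Tgfbr2 among controls and 1.64, 1.89 and 1.91 times among E3–E12 diet libraries. All 3 control ratios lay above all 3 E3–E12 diet ratios, and a scaling by a single factor per library would leave the ratio unchanged. The overlap of this ratio after quantile normalization was not tested. It was the only one of the 45 pairs of TGF-β genes whose groups did not overlap (2.22%). Over all genes tested, the ratio of a gene to Tgfbr2 did not overlap between groups for 1162 of 18006 genes (6.45%), and the ratio of a gene to Tgfbr1 for 517 (2.87%). The share of pairs was below both, so that 1 such pair among 45 is no more than the background holds.

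**Figure D3:**
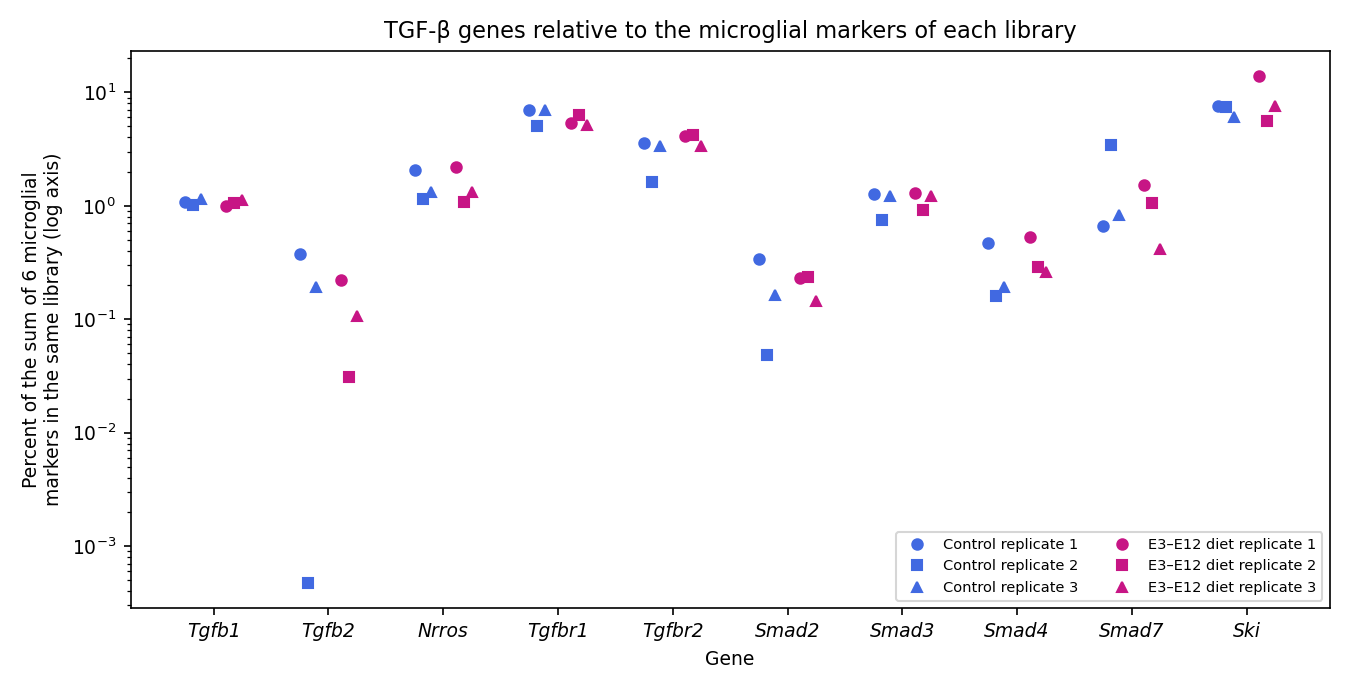
Each TGF-β gene as a percent of the summed normalized counts of 6 microglial markers in the same library, on a log axis, with 1 symbol per library (blue, control; magenta, E3–E12 diet; circles, squares and triangles, replicates 1, 2 and 3). The 6 points of Tgfb1 lie between 0.995% and 1.15%, whereas those of Smad7 run from 0.414% to 3.46%.

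Smad2, a receptor-regulated Smad, had 274, 202 and 299.9 normalized counts among controls and 193, 442 and 368 among E3–E12 diet libraries. Unlike most of the other 9 genes, it was low in control replicate 2, and it was high in E3–E12 diet replicates 2 and 3 with only replicate 1 below the controls. The log2 fold change was 0.30 (standard error 0.60, 95% confidence interval -1.13 to 1.74, exact permutation p = 0.5). It was above 0 with each library left out in turn, at 0.66 without E3–E12 diet replicate 1, 0.060 without E3–E12 diet replicate 2 and 0.14 without control replicate 2.

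Smad3, the other receptor-regulated Smad of this branch, had 1044, 3116 and 2207 normalized counts among controls and 1086, 1695 and 3041 among E3–E12 diet libraries. The lowest and the highest E3–E12 diet values both lay within the span of the controls. E3–E12 diet minus control gave a log2 fold change of -0.12 (standard error 0.71, 95% confidence interval -1.82 to 1.58, exact permutation p = 0.9). It was 0.23 without control replicate 2, 0.23 leaving out E3–E12 diet replicate 1, 0.048 after quantile normalization and 0.037 with equal totals, so it has no settled sign. Per kb of exon, Smad3 was above Smad2 in all 6 libraries, by 6.03, 24.4 and 11.7 times among controls and by 8.93, 6.07 and 13.1 times among E3–E12 diet libraries. The ratios of the groups overlapped, and the largest was in control replicate 2, where Smad3 was high and Smad2 low.

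Smad4, the shared partner of the receptor-regulated Smads, was the steadiest of the 10 genes. It had 379, 672 and 348 normalized counts among controls and 442, 534 and 650.4 among E3–E12 diet libraries, so that the highest library was 1.93 times the lowest. All 3 E3–E12 diet values lay above control replicates 1 and 3 and below control replicate 2. In limma the log2 fold change came to 0.26 (standard error 0.58, 95% confidence interval -1.11 to 1.64, exact permutation p = 0.5), and 0.56 without control replicate 2. With the libraries scaled to equal totals it was 0.42 and the groups did not overlap, as was so for 5.7% of all genes under that scaling.

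Smad7 encodes the inhibitory Smad that competes at the receptor and recruits ubiquitin ligases to it. It had 544, 14451 and 1502 normalized counts among controls and 1283, 1979 and 1043 among E3–E12 diet libraries. Control replicate 2 held 11.3 times the median of the other 5 libraries, while control replicate 1 was below every E3–E12 diet library and control replicate 3 was among them. The mean of the controls, 5499 ± 7767 beside 1435 ± 486 in E3–E12 diet mice (SD, n = 3 libraries each), was therefore set by a single library. The log2 fold change was -0.72 (standard error 1.22, 95% confidence interval -3.63 to 2.19, exact permutation p = 0.8), and 0.61 without control replicate 2. It was -1.75 without control replicate 1. Relative to the 6 microglial markers, Smad7 came to 0.667%, 3.46% and 0.822% in controls and to 1.54%, 1.06% and 0.414% in E3–E12 diet mice. Control replicate 2 was thus high for Smad7 also relative to its microglial markers.

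Ski encodes a nuclear repressor that binds Smad2, Smad3 and Smad4. It had 6220.3, 30730.3 and 10994 normalized counts among controls and 11594, 10430.1 and 18907 among E3–E12 diet libraries. All 3 E3–E12 diet values lay within the span of the controls, whose lowest and highest libraries were the extremes of all 6 libraries. E3–E12 diet minus control gave a log2 fold change of 0.041 (standard error 0.76, 95% confidence interval -1.78 to 1.86, exact permutation p = 0.9). Without control replicate 2 it was 0.67, without control replicate 1 it was -0.48, and it was -0.070 without control replicate 3 and -0.22 with E3–E12 diet replicate 3 left out. Relative to the microglial markers, Ski was at 13.9% in E3–E12 diet replicate 1 and between 5.6% and 7.63% in the other 5 libraries.

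**Figure D4:**
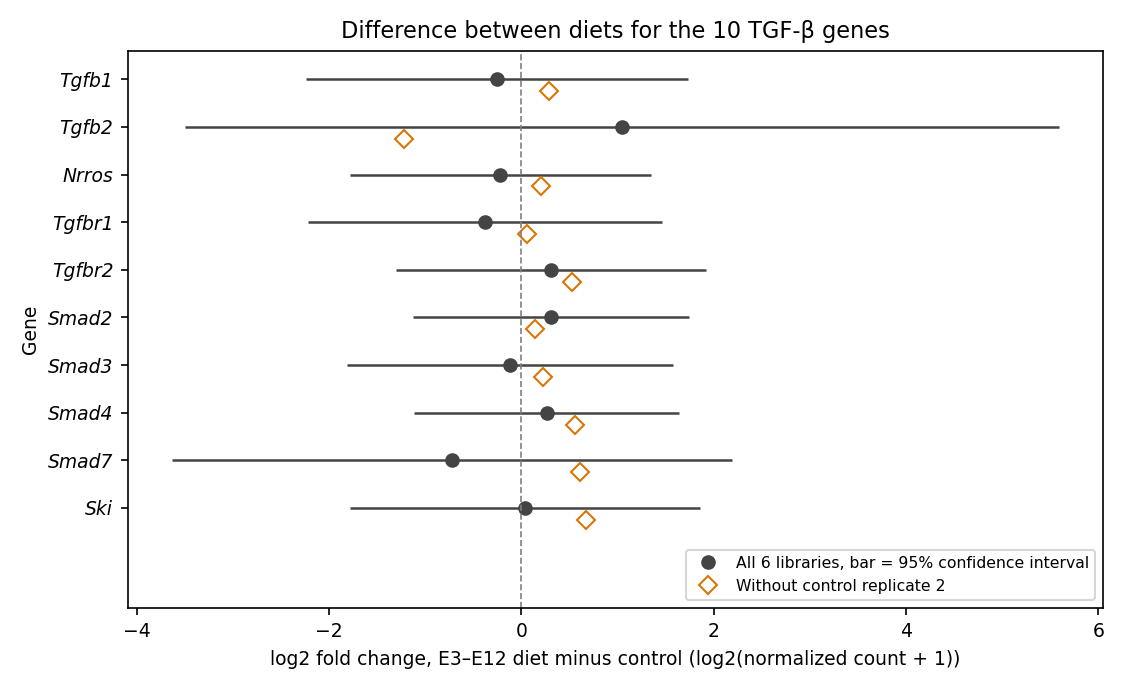
Log2 fold change of each TGF-β gene, E3–E12 diet minus control, on the log2(normalized count + 1) scale, from limma on all 6 libraries (filled circles, with bars for the 95% confidence interval) and without control replicate 2 (open diamonds). Every interval spans 0, and for Tgfb1, Tgfb2, Nrros, Tgfbr1, Smad3 and Smad7 the diamond lies on the other side of 0 from the circle.

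Ordered by mean normalized counts per kb of exon over the 6 libraries, Ski was the most abundant of the 10 at 2663 ± 1584 per kb, followed by Tgfbr1 at 1753 ± 919. Both were above all but a small share of the genes tested, since 98.6% and 98.2% of those genes had a lower level per kb. Next came Smad7 at 767 ± 1195, Tgfbr2 at 724 ± 280.0, Nrros at 642 ± 289, Tgfb1 at 427 ± 256, Smad3 at 367 ± 166 and Smad4 at 136 ± 37 per kb. Tgfb2 at 33.8 ± 24.4 and Smad2 at 33.8 ± 11 per kb were the lowest, near the middle of all genes tested (42.8% and 42.7% of genes were lower). The SDs are over the 6 libraries. Ski was above Tgfbr1, Tgfbr1 above Smad7, Nrros above Tgfb1, Smad3 above Smad4 and Smad4 above Tgfb2 in 6 of 6 libraries. The order of other neighbours was not kept, with Smad7 above Tgfbr2 in 1 of 6 libraries (control replicate 2), Tgfbr2 above Nrros in 3, Tgfb1 above Smad3 in 4 and Tgfb2 above Smad2 in 4.

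The rest of the pathway was followed in 56 further genes, of which 55 passed the filter. None was called in limma (0 genes, and 0 with an unadjusted p under 0.05), 35 had a log2 fold change above 0 and 20 below 0, and their median was 0.12 beside 0.087 over all genes. The groups did not overlap in 2 of them, both higher in E3–E12 diet mice (3.64% of the 55, beside 5.9% of all genes). The 11 other ligand, latent complex and activator genes had a median log2 fold change of 0.066, 6 above 0 and 5 below. This median was -0.20 without control replicate 2 (3 genes above 0), -0.51 without E3–E12 diet replicate 1 (5 genes above 0) and -0.16 after quantile normalization (5 genes above 0), so it has no settled sign. Their most abundant gene per kb, Ltbp4, had 2796, 427 and 2346 normalized counts in controls and 2735, 2269 and 3728 in E3–E12 diet mice. Ltbp4, which encodes a latent TGF-β binding protein of the extracellular matrix, was thus low in control replicate 2 alone.

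Of 9 further receptors and coreceptors, 7 were above 0 and 2 below (median 0.28), and Bmpr2, a receptor for bone morphogenetic proteins, was the most abundant at 14773 ± 445 normalized counts in controls and 19244 ± 9331 in E3–E12 diet mice. Bmpr2 was near level in 5 libraries and highest in E3–E12 diet replicate 3, at 30009.5 normalized counts. Its log2 fold change was 0.28, and -0.092 with that library left out. Both remaining E3–E12 diet libraries were then below every control, in a setting where 14.4% of all genes did not overlap. The median of these 9 genes was 0.50 without E3–E12 diet replicate 2. Of 4 other Smads, 1 was above 0 and 3 below (median -0.15), with Smad5 the most abundant at 1443 ± 1186 and 1037 ± 457. The median of these 4 was -0.97 without control replicate 2, but 0.17 without control replicate 1, 0.43 without control replicate 3 and 0.21 with E3–E12 diet replicate 1 left out, with 3 genes above 0 in each of the last 3 cases. The 21 regulators of the pathway had 11 genes above 0 and 10 below (median 0.0050). Tab2, an adaptor of the kinase TAK1, was the most abundant of them per kb of exon. It had 7398 ± 4492 and 6707 ± 2252 normalized counts (SD, n = 3 libraries per group, controls first). The median of the regulators was between -0.34 (control replicate 1 left out) and 0.17 (E3–E12 diet replicate 1 left out) over the libraries. It was -0.28 with E3–E12 diet replicate 3 left out, 0.11 without control replicate 2, 0.17 after quantile normalization and 0.16 with equal totals, so it too has no settled sign.

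Of 11 known target genes of the pathway, 10 passed the filter (all but Cdkn2b). All 10 of these had a log2 fold change above 0, with a median of 0.65. Over all genes tested, 9797 of 18007 were above 0 and the median was 0.087. In control replicate 2, Id1, Id3 and Bhlhe40 were listed at 0. Without that library 7 of the 10 were above 0 and the median was 0.15, and it was 0.37 without E3–E12 diet replicate 2 and 0.99 without E3–E12 diet replicate 1. With a pseudocount of 10 there were 8 of 10 above 0 (median 0.52), and after quantile normalization also 8 of 10 (median 0.34). Some marker lists of other cell types had medians on the same side, 0.93 for astrocytes (5 of 5 above 0), 1.36 for endothelial cells (4 of 6), 1.36 for neurons (4 of 5) and 0.33 for mural and fibroblast cells (4 of 5), and these were 0.60, -0.069, -0.33 and -0.65 without control replicate 2. Whether such cells took part in the target genes was not tested. The most abundant target per kb, Junb, had 1552 ± 584 normalized counts in controls and 1665 ± 615 in E3–E12 diet mice. Both genes of the pathway whose groups did not overlap were targets, 2 of the 10 tested, beside 5.9% of all genes. Klf10, a TGF-β inducible zinc finger repressor, had 304, 191 and 328 normalized counts among controls and 499, 485 and 514 among E3–E12 diet libraries. The E3–E12 diet libraries were close together and above every control, with a log2 fold change of 0.90 and a standard error of 0.55. Cdkn1a, which encodes the cell cycle inhibitor p21, had 1124, 966 and 904 normalized counts in controls and 1419.9, 3405 and 1878 in E3–E12 diet mice. Here it was the controls that were close together, with a log2 fold change of 1.07 and a standard error of 0.59. For both genes the exact permutation p was 0.1, the smallest possible, which follows from the lack of overlap itself. The adjusted p in limma with Benjamini-Hochberg adjustment was 0.999 for both. In both, every E3–E12 diet library was also above every control after quantile normalization and with equal totals. Groups did not overlap, in either direction, for 6.85% and 5.7% of all genes under these settings.

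The pathway was also read through microglial genes known to depend on it. Of 13 genes that need TGF-β signaling in microglia, 12 had a log2 fold change below 0 and 1 above 0, with a median of -0.30, and 0 had an unadjusted p under 0.05. The most abundant of them per kb, Sparc, had 22291, 57793 and 56893 normalized counts among controls and 28156, 35918 and 86795 among E3–E12 diet libraries. Sparc was low in replicate 1 of both groups and highest in E3–E12 diet replicate 3. Without control replicate 2, 9 of the 13 genes were above 0 and the median was 0.17, and without E3–E12 diet replicate 1 it was 0.24. It was -0.98 without control replicate 1 and -0.53 with E3–E12 diet replicate 3 left out, with 0 of the 13 above 0 in either case, so the size and direction of the list rested on those libraries. The list median was -0.14 with equal totals, a scaling under which 3 of the 13 genes were above 0. Of 10 genes known to be raised in microglia that lack TGF-β signaling, 4 were above 0 and 6 below, with a median of -0.15, which was 0.019 without control replicate 2 and 0.011 with equal totals. It was -0.37 without control replicate 1, -0.28 without control replicate 3 and -0.36 with E3–E12 diet replicate 2 left out. Apoe, the most abundant of these per kb, had 2827, 15671 and 4619 normalized counts in controls and 4049, 8820.5 and 7994 in E3–E12 diet mice. Both lists summed lowest in replicate 1 of each group, as the microglial markers and Tgfb1 did. P2ry12, Tmem119 and Cx3cr1 stand in both the list of dependent genes and that of the microglial markers.

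The start regions of 3 of the genes are shown because Tgfb1 and Tgfbr1 were the most alike of the 10 over the libraries and Tgfb2 was the farthest from both. RefSeq gene starts in build GRCm38.p6 were matched for 7 of the 10 genes. The 250 bases before each start were searched on both strands. The search covered the Smad-binding letters CAGAC, which read GTCTG on the other strand, and the Smad-binding palindrome GTCTAGAC, which does not contain CAGAC. It also covered the GC-rich letters GGCGC, which read GCGCC on the other strand. CAGAC stands in 42.2%, GTCTAGAC in 0.167% and GGCGC in 32% of the 32851 regions of this length before all gene starts. Among the 7 genes, CAGAC was found for 4 (Tgfb2, Tgfbr1 at its second listed start, Tgfbr2 and Nrros), GGCGC for 3 (Tgfb1, Tgfbr1 and Ski), and GTCTAGAC for 0. Smad2, Smad4 and Smad7 are named only. The Tgfb1 region (chr7:25686752-25687001, + strand) held GGCGC at 1 place, that of Tgfbr1 (chr4:47352972-47353221, + strand) at 3 places, of which 2 overlap, and that of Tgfb2 (chr1:186705990-186706239, - strand) held CAGAC at 2 places. Capitals mark these letters in the sequences, each written 5′ to 3′ on the strand of its gene.
Tgfb1: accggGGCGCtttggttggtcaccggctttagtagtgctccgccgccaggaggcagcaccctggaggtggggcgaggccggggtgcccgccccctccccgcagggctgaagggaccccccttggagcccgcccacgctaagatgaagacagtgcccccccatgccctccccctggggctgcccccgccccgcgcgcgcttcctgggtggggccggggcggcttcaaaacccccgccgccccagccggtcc
Tgfbr1: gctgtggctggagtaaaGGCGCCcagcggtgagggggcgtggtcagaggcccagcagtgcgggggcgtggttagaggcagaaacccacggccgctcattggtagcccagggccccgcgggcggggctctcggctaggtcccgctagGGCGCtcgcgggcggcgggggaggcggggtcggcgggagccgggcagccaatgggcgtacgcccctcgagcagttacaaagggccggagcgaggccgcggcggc
Tgfb2: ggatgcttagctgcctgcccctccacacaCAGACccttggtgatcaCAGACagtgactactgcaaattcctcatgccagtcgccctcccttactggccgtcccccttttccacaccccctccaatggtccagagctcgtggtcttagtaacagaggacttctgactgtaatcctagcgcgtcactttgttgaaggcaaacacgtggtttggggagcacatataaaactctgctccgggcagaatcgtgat

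In the annotation of build GRCm38, Tgfb1 (ENSMUSG00000002603) lies at chr7:25687002-25705077 on the + strand, Tgfb2 (ENSMUSG00000039239) at chr1:186622792-186705989 on the - strand and Nrros (ENSMUSG00000052384) at chr16:32142785-32165594 on the - strand. Tgfbr1 (ENSMUSG00000007613) lies at chr4:47353222-47414931 on the + strand and Tgfbr2 (ENSMUSG00000032440) at chr9:116084293-116175360 on the - strand. Smad3 (ENSMUSG00000032402) lies at chr9:63646767-63757994 and Ski (ENSMUSG00000029050) at chr4:155154075-155222592, both on the - strand. Smad2 (ENSMUSG00000024563) lies at chr18:76241580-76310963 and Smad7 (ENSMUSG00000025880) at chr18:75367529-75395935, both on the + strand, and Smad4 (ENSMUSG00000024515) at chr18:73639009-73703780 on the - strand. All 10 are protein-coding. Between 0% and 0.77% of the 50-base windows of their transcripts occur in another annotated gene. How many reads from other genes entered their values was not tested.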

How the data were processed

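Microglial RNA was sequenced from 6 libraries, 3 per maternal diet. The deposited table holds a signal per gene, the authors' normalized counts, usually gene counts divided by a factor per library. Its name mentions surrogate variables, an adjustment that the sources used here do not describe. The values may therefore have been adjusted further. The submitters' processing notes name FastQC, STAR, featureCounts, DESeq2 and build GRCm38. The values are not whole reads: 66.4% to 83.1% of low values lay within 0.1 of a whole multiple of 1 step per library, so no count model was run, and reads per library are approximate.

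Identifiers were matched to symbols (26507 of 26789 genes). Genes with a mean of at least 10 were kept, and log2(normalized count + 1) was fitted with limma 3.58.1 in R 4.3.3 (lmFit and eBayes, two-sided, no covariate), with Benjamini-Hochberg adjustment over 18007 genes and a threshold of 0.1. The fit was tested on simulated data, where it returned the fold changes put in but, at the spread of these libraries, did not call them. Levels per kb use the union of GENCODE exons. Summaries and figures were made in Python 3.11.15 with pandas 2.3.3, numpy 2.4.6 and matplotlib 3.10.9. The named genes were the 10 members, in each pathway or microglial list those with an unadjusted p under 0.05, those whose groups did not overlap and the most abundant per kb, and the 3 genes most like Tgfb1 and Tgfbr1. The members and lists were chosen with earlier results of these data known, and some list genes are not reported here and were left out of every sum and count of the lists. Libraries are separate litters, whose numbers were not treated as pairs. The study also describes independent replicates that each held mice of both diets. Whether libraries of the same number were handled together is not stated there. Alternatives covered the pseudocount, filter, scaling, prior variance, a block and each library left out.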

Additional observations from a re-analysis of the deposited data

How the results depend on the processing

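The count of called genes was 0 under all settings but 1, a mean of at least 50 normalized counts, where 1 gene outside the pathway (Prdm4) passed in limma. Genes with an unadjusted p under 0.05 numbered between 207 and 539 over the settings, and 0 of the 10 TGF-β genes was among them in any. With the replicate number as a block 0 genes were called and 468 were under that p. Libraries of the same number deviated from their group means with correlations of 0.26, 0.0348 and 0.142 across genes. Control replicates 1 and 3 correlated best with their own number and control replicate 2 with E3–E12 diet replicate 3 (0.0869), and the numbers were not treated as pairs. The count test on whole reads was not run, because whole reads could not be recovered. Genes without overlap numbered 2257 to 3167 with a library left out, where fewer libraries make overlap rarer, and TGF-β genes without overlap 0 to 2 (Smad4 and Tgfb2 without control replicate 2, Smad2 and Tgfbr2 without E3–E12 diet replicate 1, settings with 14.4% and 15.1% of all genes), or 1, Smad4, with equal totals (5.7% of all genes). The median log2 fold change of the 10 genes was 0.073 after quantile normalization, 0.12 with equal totals and -0.52 to 0.26 with a library left out. Over the libraries left out, the log2 fold change ran from -0.84 to 0.29 for Tgfb1, -1.22 to 2.23 for Tgfb2, -0.56 to 0.20 for Nrros, -0.89 to 0.11 for Tgfbr1, -0.076 to 0.72 for Tgfbr2, -0.56 to 0.23 for Smad3, -1.75 to 0.61 for Smad7 and -0.48 to 0.67 for Ski, and that of Smad3 was 0.048 after quantile normalization and 0.037 with equal totals. Smad2 (0.060 to 0.66) and Smad4 (0.086 to 0.56) were above 0 throughout. The cause of these shifts was not tested. The ratio of Tgfb1 to the marker sum and its other denominators were all chosen after seeing the data.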

Other observations

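Border-associated macrophages share CD11b with microglia. Of their 6 markers, 1 had a log2 fold change above 0 and 5 below (median -0.44), and the median was 0.16 without control replicate 2, -0.98 without control replicate 1, -0.66 without control replicate 3 and -0.17 with E3–E12 diet replicate 1 left out. The list, led by Mrc1, summed to 5360.0, 19951 and 7379.7 normalized counts among controls and to 5220.3, 8201 and 8514 among E3–E12 diet libraries, with none of the 6 listed at 0. Pf4, a platelet chemokine also made by these macrophages, was the only 1 of the 45 markers tested with an unadjusted p under 0.05 (2.22%, beside 1.82% of all genes). It had 30.5, 36.5 and 173 normalized counts in controls and 2.25, 20.3 and 12.3 in E3–E12 diet mice, so each E3–E12 diet library was below each control (log2 fold change -2.60, standard error 1.02, adjusted p = 0.999 in limma with Benjamini-Hochberg adjustment). Its unadjusted p in limma was 0.0392, against 0.127 without control replicate 3, 0.115 without E3–E12 diet replicate 1 and 0.0646 without E3–E12 diet replicate 3. After quantile normalization the groups overlapped, with a log2 fold change of -3.03 and a p of 0.0465. The p was 0.0522 with equal totals and 0.0713 with a limma trend.

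The remaining lists spread within groups. The 5 choroid plexus markers, led by Ttr, summed to 7106, 555 and 18716 normalized counts among controls and to 40133, 52.4 and 516 among E3–E12 diet libraries, with Folr1 listed at 0 in control replicate 2 and Aqp1 and Clic6 in E3–E12 diet replicate 2. The 3 oligodendrocyte markers, led by Mbp, summed to 12752, 8788 and 2358 in controls and 4852, 7674 and 2985 in E3–E12 diet mice, with Mag listed at 0 in control replicate 3 and in all 3 E3–E12 diet libraries. The 4 erythroid and neutrophil markers, led by S100a9, summed to 400.0, 1866 and 356 in controls and 432, 321 and 428 in E3–E12 diet mice, with Hba-a1 listed at 0 in replicate 2 of each group.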
